A study of Saccharomyces cerevisiae with 6 samples.

Results

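Transcript levels of Saccharomyces cerevisiae in SCD medium were set against those in YPD medium through another medium, MDN, that was hybridised with each of them. For every gene, the log2 ratio of MDN over SCD was subtracted from the log2 ratio of MDN over YPD. Any constant effect of a dye on a probe cancels in that difference, and so does the MDN channel if both arrays carried the same MDN RNA. What is left is log2 SCD over YPD. The sources used here do not say whether the MDN RNA was the same. If it was not, any difference between the MDN samples is part of every value. Of 5560 genes with a value on any array of the series, 5278 had a value on both medium arrays and form the comparison.

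The cells were wild-type S288c, the laboratory strain whose genome is the yeast reference, and poly(A) RNA was labelled with Cy3 (the YPD or SCD culture) or Cy5 (the MDN culture). The series holds 6 arrays of 2 channels: 1 of MDN against YPD, 1 of MDN against SCD, and 4 of cells with rapamycin against cells without it, 2 in MDN and 2 in YPD. YPD is rich medium made of yeast extract, peptone and dextrose. The labels give SCD and MDN only as abbreviations. SCD commonly stands for synthetic complete medium with dextrose, a defined mixture of sugar, salts, vitamins, amino acids and bases, but neither the recipe nor the density and number of the cultures was given in the sources used here. With 1 array per medium there is no replicate, so no difference between SCD and YPD was tested, and genes at least 2-fold apart (an absolute log2 difference of at least 1) were counted instead. A positive value is read as higher in SCD because MDN carried Cy5 on both arrays. That reading is likely, though the labels do not spell it out: had the ratios been formed as Cy3 over Cy5, all directions would be the opposite. Ratios of ribosomal protein genes, which rapamycin is known to repress, had medians of -4.06, -4.32, -3.64 and -3.32 on the 4 rapamycin arrays when read the same way. The values are ratios with no levels behind them, so the strain could not be checked against marker genes, and a lower ratio cannot tell less RNA per cell from fewer cells that make it.

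Yeast reads its nutrients through separate circuits, each with its own activator. Met4 with its partners drives sulfate uptake and methionine synthesis, Zap1 the zinc genes, Pho4 the phosphate genes, and Ino2 with Ino4 the genes of inositol and phospholipid synthesis, which Opi1 represses. Gcn4 drives amino acid synthesis when an amino acid is short, Gln3 and Gat1 the genes for poor nitrogen sources, and the kinase complex TORC1 links nitrogen supply to ribosome production. Msn2 and Msn4 activate a broad set of general stress genes when growth slows or the environment changes.

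Between SCD and YPD, 148 genes (2.80%) were at least 2-fold higher in SCD and 117 (2.22%) at least 2-fold lower, or 265 (5.02%) in either direction. The largest differences were on the higher side. A difference of at least 4-fold was seen for 27 genes higher and 5 lower in SCD, and one of at least 8-fold for 11 higher and 2 lower. Most genes differed little: the median log2 difference was 0.00, the quartiles were -0.27 and 0.30, the SD over genes was 0.525, and 74.4% of genes lay within 0.5 of 0. The only spread of a difference of 2 arrays that the series measures is that of the duplicate rapamycin arrays, whose SD was 0.254 in MDN and 0.351 in YPD. There, 35 of 5080 genes (0.689%) and 97 of 5370 genes (1.81%) were at least 2-fold apart. That spread belongs to another comparison and does not cover the spread between cultures grown in each medium. The labels do not say whether the duplicates repeat the array, the labelling or the culture. The plot of the share of genes past each size shows the medium difference above both pairs of duplicates at every size from 0.25 on the log2 scale upwards.

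**Figure D1:**
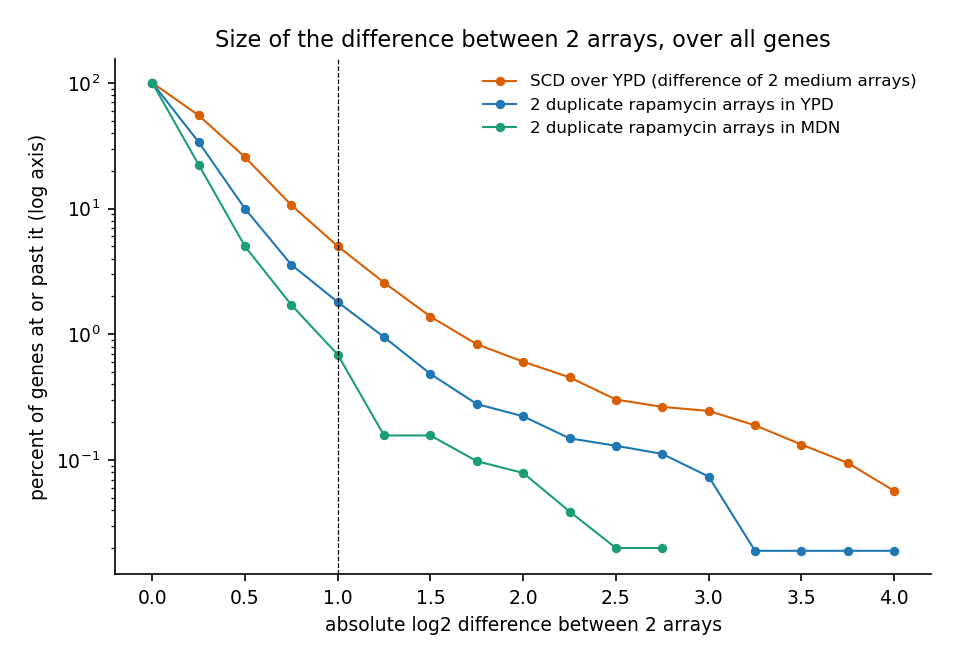
Percent of genes (vertical, log axis) whose absolute log2 difference between 2 arrays was at or past the value on the horizontal axis, for SCD over YPD and for the duplicate rapamycin arrays in YPD and in MDN. At the dashed line, 2-fold, 5.02% of genes were past it for SCD over YPD against 1.81% and 0.689% for the duplicates.

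The 282 genes without a difference lacked the value of the YPD array (88 genes), of the SCD array (213 genes), or both (19 of these). On the single arrays, 5.96% of 5472 genes were at least 2-fold apart for MDN over YPD and 3.46% of 5347 genes for MDN over SCD. Of 194 genes measured only on the YPD array, 1 was at least 2-fold apart there, CAR2 (MDN over YPD of -1.43), which makes the ornithine transaminase of arginine breakdown. Of 69 measured only on the SCD array, 1 was, TRP5 (MDN over SCD of 1.01), the tryptophan synthase gene. A further 534 probes that carry no gene name here had both values, and 12 of them were at least 2-fold higher and 8 at least 2-fold lower in SCD.

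**Figure D2:**
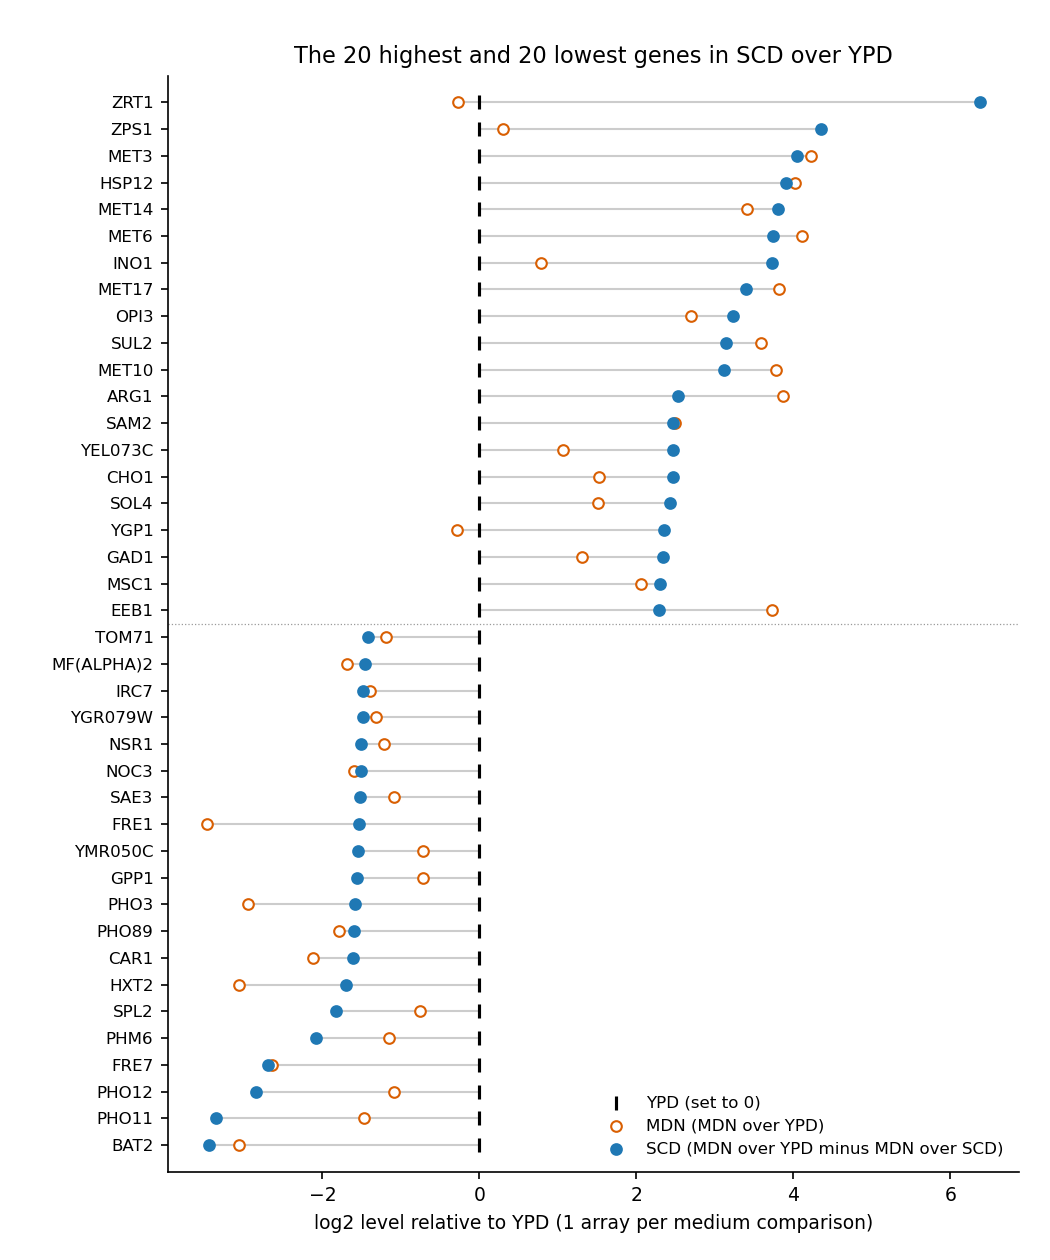
The 20 genes with the highest and the 20 with the lowest log2 SCD over YPD, each with YPD set to 0, MDN at its log2 ratio over YPD (open circles) and SCD at the difference of both arrays (filled circles), 1 array per medium comparison. For ZRT1, ZPS1 and INO1 the MDN circle lies near YPD, and for the sulfur genes MET3, MET14, MET6, MET17, SUL2 and MET10 it lies near SCD.

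Of the 20 highest genes, 7 belonged to a list of sulfate assimilation and methionine genes, 5 to the general stress genes, 3 to inositol and phospholipid synthesis, 2 to the zinc regulon and 1 to arginine synthesis. Of the 20 lowest, 5 were of the phosphate regulon. Most extreme genes had MDN on the side of SCD: in 12 of the 20 highest and 12 of the 20 lowest, MDN was within 2-fold of SCD and at least 2-fold from YPD. Over all genes, 5.96% were at least 2-fold apart for MDN over YPD and 3.46% for MDN over SCD. The array of MDN over YPD had the wider spread, with a median absolute deviation of 0.263 against 0.197. The extreme genes were picked from these same 2 arrays, so neither count is independent support for the position of MDN. Among all 5278 genes, the measured members numbered 32 for the sulfur list, 51 for general stress and 20 for inositol and phospholipids. They numbered 14 for zinc, 8 for arginine and 24 for phosphate. In the paragraphs that follow, the share of a list's members past 2-fold can be read against the 2.80% of all genes that were higher and the 2.22% that were lower.

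Genes of zinc uptake were far higher in SCD than in YPD, and MDN was close to YPD for them. ZRT1, the high-affinity zinc transporter of the plasma membrane, had a log2 MDN over YPD of -0.27 and a log2 MDN over SCD of -6.64, which gives 6.38 for SCD over YPD, or 83.0-fold, the highest value of all genes. The MDN over SCD ratio of ZRT1 stood at 0.01, the lowest that the deposited rounding to 0.01 can hold, so that its fold lies between 55.0 and 167 from rounding alone. With ratios floored at 0.05 it was at 4.05, below ZPS1. ZPS1, which encodes a secreted protein under Zap1, followed at 4.36 (0.30 and -4.06 on the same arrays). Other steps of the same circuit were higher by smaller amounts. ZRT3, which releases zinc from the vacuole, was at 1.94 (0.30 and -1.64), and ZAP1, the activator itself, at 1.25 (-0.27 and -1.51). These 4 of 14 measured members were at least 2-fold higher in SCD, none was lower, and in all 4 MDN was within 2-fold of YPD. The other members lay between -0.46 and 0.51, among them the low-affinity transporter ZRT2 (0.47), ADH4 (0.40) and the vacuolar zinc importers ZRC1 (-0.28) and COT1 (0.07). FET4, a low-affinity carrier of iron and other metals that Zap1 also activates, was the lowest at -0.46. The median of the list was 0.42, against 0.00 for all genes, so the zinc difference was carried by a few genes rather than by the whole list.

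Genes that take up sulfate and reduce it to methionine were higher in SCD, and here YPD was the medium that stood apart. With both arrays scaled to the same spread, 14 of 32 measured members were at least 2-fold higher in SCD and the median was 0.87. On the deposited scale, 18 of the 32 were at least 2-fold higher and none lower, with a median of 1.11. In 16 of these 18, MDN was within 2-fold of SCD and at least 2-fold from YPD; MET32 and MUP1 were the others. The route can be followed step by step. The sulfate permease gene SUL2 had MDN over YPD of 3.59 and MDN over SCD of 0.44, or 3.14 for SCD over YPD, whereas SUL1, the gene of the other sulfate permease, was at -0.44 with 1.44 and 1.88. MET3, ATP sulfurylase, was at 4.04 (4.22 and 0.18), and MET14, the kinase of the next step, at 3.81 (3.41 and -0.40). The exception on this route was MET16, the reductase after MET14, at -0.15 (-0.12 and 0.03). Of the subunits of sulfite reductase, MET10 was at 3.11 (3.78 and 0.67) and MET5 at 1.48 (1.93 and 0.44), and of the genes for its sirohaem cofactor, MET1 was at 1.86 and MET8 at 0.37. MET17, which joins sulfide to O-acetylhomoserine, was at 3.40 (3.82 and 0.42), MET2, which makes that acceptor, at 2.17, and MET6, methionine synthase, at 3.73 (4.11 and 0.38). Beyond methionine, SAM2 and SAM1, the paired genes of S-adenosylmethionine synthetase, were at 2.47 and 1.03, MHT1, a homocysteine methyltransferase, at 1.70, and SAH1, which recycles S-adenosylhomocysteine, at 0.92.

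Genes that branch off this route or control it did not follow it to the same extent. The cysteine genes CYS3 and CYS4 were at -0.49 and 0.17, and STR2 and STR3, which turn cysteine to homocysteine, at 0.37 and 0.67. HOM6, the last step to homoserine, was at 1.24, while HOM3 was at 0.11 and HOM2 the lowest of the list at -0.90. Among the regulators, MET28 was at 1.35 and MET32 at 1.10, whereas MET4, the activator, was at 0.03 and MET30, its ubiquitin ligase subunit, at 0.31. The methionine permease genes differed in where MDN lay. MUP1, the high-affinity permease, was 1.40 higher in SCD than in YPD with MDN below both (-1.43 over YPD and -2.84 over SCD), and MUP3, the low-affinity one, was at 1.15 with MDN above both (1.67 and 0.53). MET13, which makes the methyl donor of methionine synthesis and stands in the folate list, was at 1.65, while its homologue MET12 was at -0.86. MXR1, which repairs oxidised methionine and was named after its value was seen, was at 1.73.

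**Figure D3:**
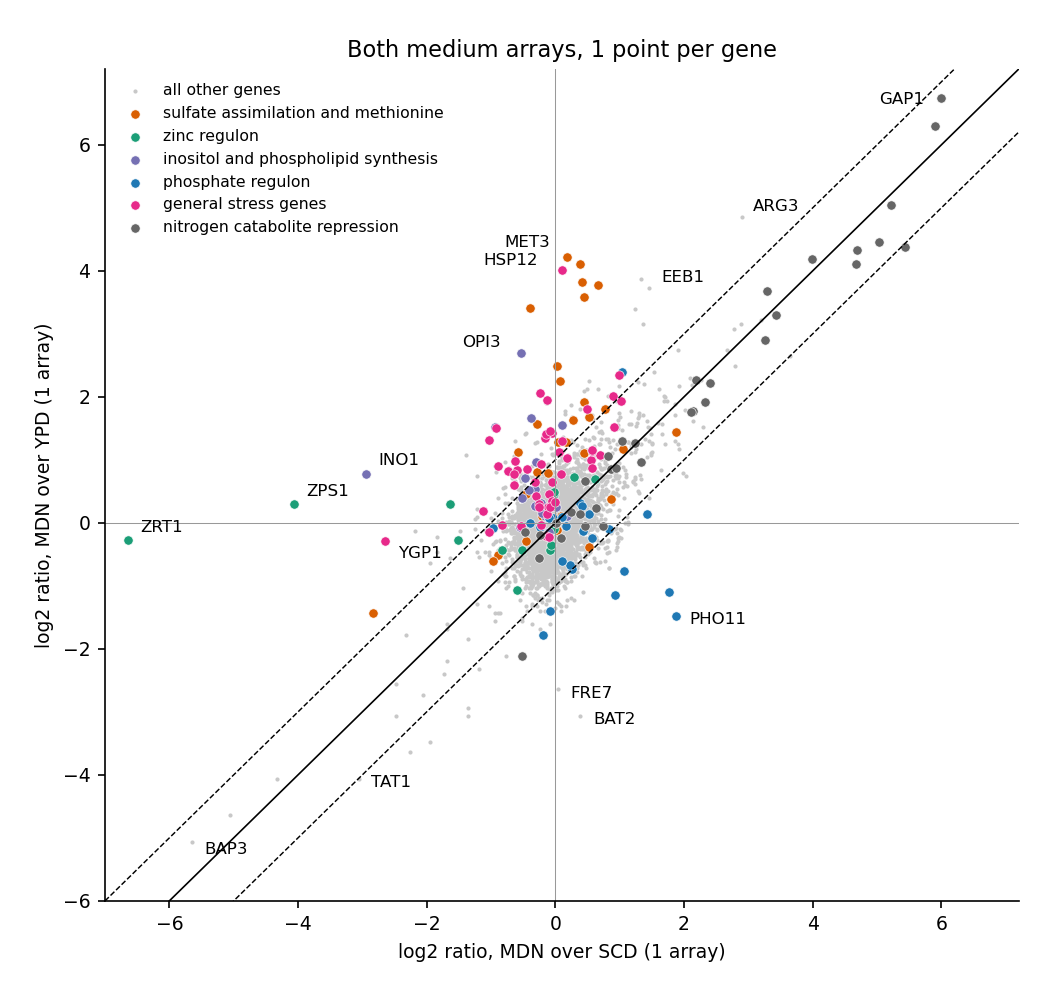
Each gene's log2 MDN over YPD (vertical) against its log2 MDN over SCD (horizontal), 1 array each, with 6 gene lists in colour (a gene in several lists takes the colour of the first). The solid line marks equal levels in SCD and YPD and the dashed lines a 2-fold difference: the highest sulfur genes lie above the line near 0 on the horizontal axis, ZRT1 and ZPS1 to the left near 0 on the vertical axis, and most genes of nitrogen catabolite repression along the line.

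Phospholipid synthesis was higher in SCD, with different positions of MDN from gene to gene. Of 20 measured members of the inositol and phospholipid list, 7 were at least 2-fold higher in SCD and none lower, with a median of 0.73. INO1, which makes inositol phosphate from glucose 6-phosphate, was at 3.73 (MDN over YPD of 0.78 and MDN over SCD of -2.94), so that MDN was nearer to YPD. For OPI3, the enzyme of the last methylations that make phosphatidylcholine, the value was 3.23 (2.69 and -0.54), and for CHO1, phosphatidylserine synthase, 2.46 (1.52 and -0.94). MDN was nearer to SCD for these and for the carriers ITR1, for inositol, at 2.04 (1.66 and -0.38), and HNM1, for choline, at 1.46 (1.56 and 0.10). CPT1 and CKI1, of the choline branch, were at 1.27 and 1.19. The methyltransferase CHO2 was at 0.50 and the decarboxylase PSD1 at 0.90, and the regulators OPI1, INO4 and INO2 were at 0.93, 0.60 and 0.36. PIS1, which joins inositol to the lipid, was at -0.01. GPC1, a glycerophosphocholine acyltransferase outside the list and named after its value was seen, was at 1.01.

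Phosphate genes were lower in SCD than in YPD. Of 24 measured members of the regulon, 8 were at least 2-fold lower and 1, PHM7, at least 2-fold higher (1.35), with a median of -0.63; PHM7 also stands in the list of general stress genes. The acid phosphatases PHO11 and PHO12 were at -3.36 and -2.85. Their MDN over YPD was -1.47 and -1.09 and their MDN over SCD 1.88 and 1.76, so both genes were highest in YPD, intermediate in MDN and lowest in SCD. These copies are nearly identical, and their probes may share signal. PHO5, the main secreted acid phosphatase, was at -1.31 (-1.40 and -0.09). Of the phosphate carriers, the sodium-coupled PHO89 was at -1.60 (-1.79 and -0.18) and the high-affinity PHO84 at -1.28 (0.14 and 1.42), and PHO86, needed to bring Pho84 to the cell surface, was at -1.0. PHM6, a target of Pho4, was at -2.09 and SPL2, which restrains low-affinity phosphate uptake, at -1.82. The genes for polyphosphate synthesis lay below 0 but under 2-fold on the deposited scale, with VTC1 at -0.94, VTC4 at -0.81, VTC3 at -0.70 and VTC2 at -0.39. With both arrays scaled to the same spread, 8 members of the regulon were again lower and 1 higher, with a median of -0.68. There VTC1 was among the lower members in place of PHO86, and the higher member was PHM8 in place of PHM7. The low-affinity carriers PHO90, PHO91 and PHO87 were at -0.89, -0.57 and 0.11. The regulators themselves differed little: PHO4 was at -0.07, PHO2 at 0.40, PHO80 at -0.01, PHO85 at -0.15 and PHO81 at -0.21. PHO3, an acid phosphatase that thiamine controls and that lies beside PHO5, was at -1.58 with MDN below both other media (-2.94 and -1.36). It was the only one of 19 measured thiamine genes past 2-fold, and that list had a median of 0.10.

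Most iron and copper genes differed little, and the reductase genes FRE7 and FRE1 were lower in SCD. FRE7, a reductase controlled by copper, was at -2.69 (MDN over YPD of -2.64 and MDN over SCD of 0.04). FRE1, which reduces iron and copper at the cell surface, was at -1.53 with MDN lowest (-3.47 and -1.94). The copper transporter CTR1 had the same order of media by a smaller difference, -0.66 (-2.40 and -1.74). Of 14 measured copper genes 2 were lower and none higher, with a median of -0.10; the metallothionein copies CUP1-1 and CUP1-2 were at -0.22 and 0.01. Of 28 measured genes of the iron regulon, FRE1 was lower and TIS11, which destabilises mRNAs of iron-using proteins, was higher (1.06), with a median of -0.10. The iron oxidase FET3 was at -0.08, its partner permease FTR1 at -0.64, and the siderophore carriers ARN1 and SIT1 at 0.00 each. The other measured FRE genes lay between -0.84 for FRE6 and 0.54 for FRE2. FRE1 was at -0.81, short of 2-fold, when both arrays were scaled to the same spread. With that scaling CTR1 was at -0.12, and TIS11, at 0.90, was short of 2-fold as well.

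General stress genes were higher in SCD as a broad group. Of 51 measured, 25 were at least 2-fold higher, none lower, and 49 were above 0, with a median of 0.96. At equal spread of the arrays 20 were at least 2-fold higher, and the median was 0.84. HSP12, a small protein that protects membranes, was at 3.91 (MDN over YPD of 4.02 and MDN over SCD of 0.11). SOL4, of the pentose phosphate pathway, was at 2.43 (1.51 and -0.92), and the glutamate decarboxylase GAD1 at 2.34 (1.31 and -1.03), with MDN between the other media for both. YGP1, a secreted glycoprotein of starved cells, was at 2.36 but with MDN at the level of YPD (-0.29 and -2.64). DDR2 was at 2.08, the chaperones HSP42, HSP26, HSP78 and HSP104 at 1.78, 1.32, 1.28 and 1.24, and catalase T, encoded by CTT1, at 1.52. Some of these genes also stand in metabolic lists; the 24 measured members in no other list held 9 that were at least 2-fold higher, with a median of 0.58. The wider list of heat shock chaperones held those 4 and no other of its 26 measured members past 2-fold, and its median was 0.14. Of 30 measured genes of oxidative stress defence, CTT1, GPX1 (1.31) and PRX1 (1.02) were higher and the flavohaemoglobin YHB1 was lower (-1.36).

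Lists of storage carbohydrate, respiration and vacuolar degradation had medians above 0. Members at least 2-fold higher were 16.7% of trehalose and glycogen genes and 27.3% of vacuolar proteases. For the respiratory chain the share was 6.25%, against 2.80% of all genes. In the list of trehalose and glycogen genes, 3 of 18 measured were at least 2-fold higher, PGM2 (1.49), TSL1 (1.16) and GSY2 (1.07), with a median of 0.50. Of 32 measured genes of the respiratory chain, 30 were above 0 but only QCR6 (1.08) and QCR7 (1.02), both subunits of the cytochrome bc1 complex, were at least 2-fold higher; the median was 0.59. The citric acid cycle had a median of 0.43 over 16 genes and a range from -0.77 for ACO1 to 0.83 for SDH3; none was past 2-fold, but ACO1 was at -1.39 at equal spread. Mitochondrial ribosomal proteins had a median of 0.34 over 66 measured members, of which RSM22 (1.43) and MRPL16 (1.05) were past 2-fold, a share near that of all genes. Among 11 measured vacuolar proteases and their inhibitors, PEP4, the proteinase that activates the others, was at 1.42, PBI2, an inhibitor of proteinase B, at 1.20 and APE1, an aminopeptidase, at 1.18; the median was 0.68. At equal spread 1 of these 3, PEP4, was past 2-fold and the median was 0.40. Of 31 measured autophagy genes, ATG41 (1.92) and ATG8 (1.50), which encodes the ubiquitin-like protein of the autophagosome membrane, were higher and ATG18 was lower (-1.0), with a median of 0.38. Proteasome genes lay mostly above 0 (29 of 34) with a median of 0.26 and none past 2-fold.

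**Figure D4:**
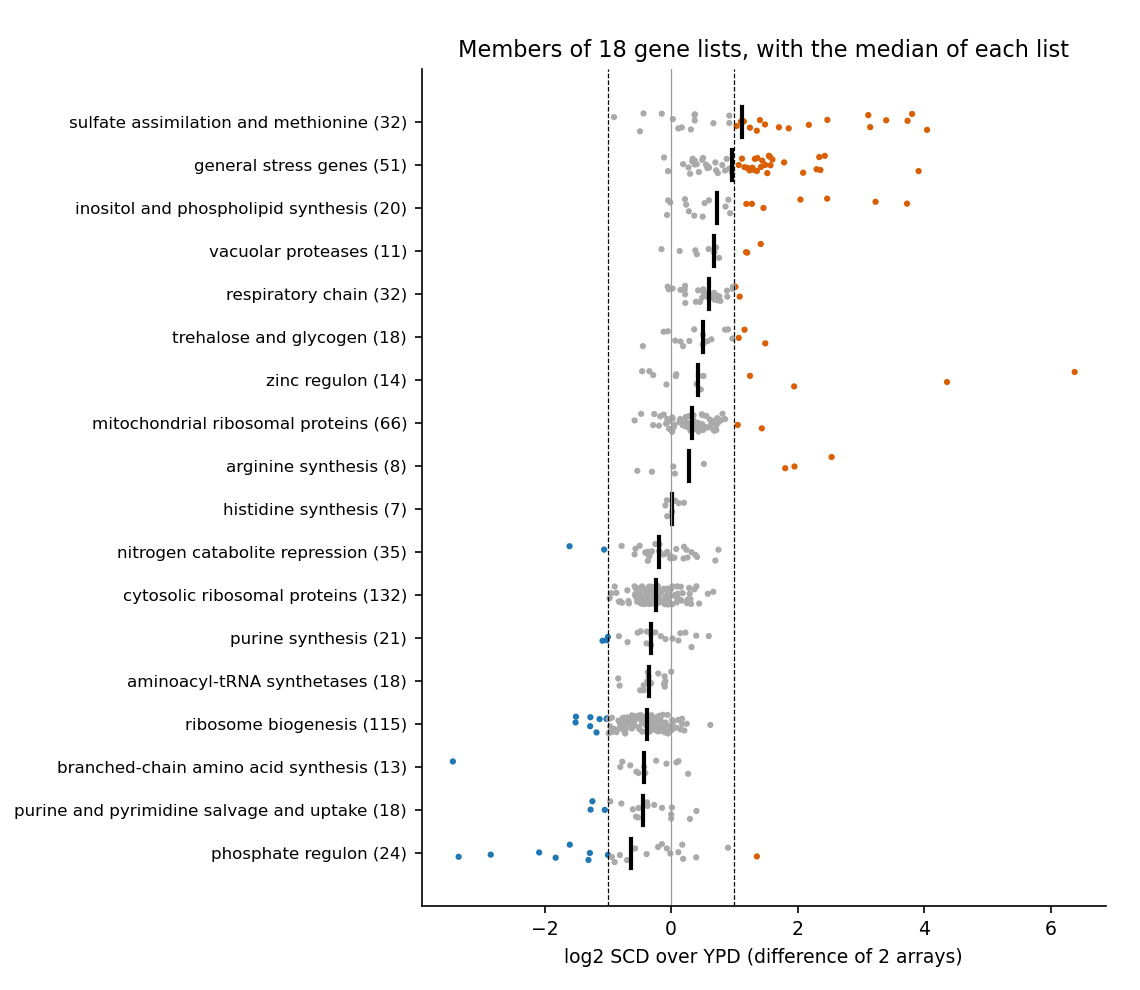
Log2 SCD over YPD of each measured member (points, number in brackets) of 18 gene lists, with the median as a black bar, orange for at least 2-fold higher, blue for at least 2-fold lower and grey between. Medians run from 1.11 for sulfate assimilation and methionine to -0.63 for the phosphate regulon, and the zinc and branched-chain lists have 1 or a few members far from the rest.

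Ribosome biogenesis genes lay mostly below 0, by small amounts. Of 115 measured ribosome biogenesis genes, 102 were below 0, 8 were at least 2-fold lower and none higher, with a median of -0.39. The lowest were NOC3, needed for the export of ribosomal precursors, at -1.51 (MDN over YPD of -1.60 and MDN over SCD of -0.09), and NSR1, a nucleolar RNA-binding protein, at -1.50 (-1.22 and 0.29). The RNA helicase gene DBP2 was at -1.28 and UTP15, of the small subunit processome, at -1.18. Cytosolic ribosomal proteins had a median of -0.24 over 132 measured genes, with 105 below 0, none past 2-fold and a range from -0.97 for RPL43B to 0.66 for RPL15A; paired copies of these genes may share signal. Of 39 measured subunits and factors of RNA polymerases I and III, 31 were below 0 and 1, RPA12 of polymerase I, was at least 2-fold lower (-1.11). Aminoacyl-tRNA synthetases had a median of -0.34 with 17 of 18 below 0 and none past 2-fold. Among 41 translation factors, TEF4 (-1.0) was lower, and the median was -0.24. The counts for polymerases and translation factors are near the 2.22% of all genes, and no test bears on these medians. Equal scaling of the arrays left each of these medians below 0.

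Of 8 measured arginine synthesis genes, 3 were at least 2-fold higher in SCD, and of 13 branched-chain genes 1 was lower, BAT2. ARG1, ARG3 and ARG4, which form arginine from ornithine, were at 2.53, 1.95 and 1.80. For all 3, MDN was above both other media: ARG1 had 3.87 over YPD and 1.34 over SCD, ARG3 had 4.86 and 2.91, and ARG4 had 3.16 and 1.36. The other measured genes of the route were under 2-fold, CPA1 at 0.06, ARG7 at 0.52, ARG2 at -0.30 and ARG8 at -0.53, and the list's median of 0.29 became -0.01 when the arrays were scaled to the same spread, where ARG3 was at 0.79. CAR1, arginase, which breaks arginine down, was at -1.61 (-2.12 and -0.51). BAT2, the cytosolic aminotransferase of branched-chain amino acids, was the lowest gene of all, at -3.45 (-3.06 and 0.39), or 10.9-fold lower in SCD. Its mitochondrial counterpart BAT1 was at -0.52, with MDN above both other media (1.62 and 2.13). The rest of the branched-chain list was under 2-fold, with a median of -0.43 over 13 members, but at equal spread the median was -0.86 and 4 members were lower, among them ILV5 (-1.22). LEU1 was at 0.08 on the deposited scale although MDN exceeded YPD by 2.74 and SCD by 2.66, and LEU2 at 0.27 with 3.16 and 2.89.

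Among genes of histidine, lysine and aromatic amino acid synthesis, LYS2 was past 2-fold between SCD and YPD on the deposited scale. The 7 histidine genes lay between -0.09 and 0.20, with a median of 0.02, although their median was 0.92 on the YPD array and 0.96 on the SCD array; at equal spread the median for SCD over YPD was -0.41. Lysine genes had a median of -0.38 over 9 members, with LYS2 at -1.12 (0.01 and 1.14), LYS21 at -0.76 and LYS20 at -0.56. At equal spread the lysine median was -0.73, and LYS21 (-1.26), LYS4 (-1.17) and LYS20 (-1.07) were past 2-fold as well. Aromatic amino acid synthesis had a median of -0.22 over 12 measured members and none past 2-fold. Of 12 genes of glutamate and related amino acids, GDH3, a glutamate dehydrogenase, was at -1.29 (0.75 and 2.04) and ALT1, alanine transaminase, at -1.13 (-0.17 and 0.96). In the list for threonine, serine and glycine, SER33, of the first step to serine, was at 1.13 and GLY1, threonine aldolase, at -0.93. GCN4, the activator of amino acid synthesis, was at -0.56.

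Genes under nitrogen catabolite repression were higher in MDN than in both other media, and how SCD compared with YPD depended on the scale of each array. Over 35 measured members the median ratio of MDN was 1.27 to YPD and 1.25 to SCD, and -0.19 for SCD over YPD, with none at least 2-fold higher and CAR1 and ASP3-2 lower. With both arrays scaled to the same spread, the median was -0.68 and 12 members were at least 2-fold lower in SCD. GAP1, the general amino acid permease, had 6.75 and 6.0, which leaves 0.75. MEP2, the high-affinity ammonium permease, had 6.30 and 5.89, or 0.41, and DAL5, the allantoate permease, 4.20 and 3.99, or 0.20. At equal spread GAP1 was at -1.15 and DAL5 at -1.03. The copies ASP3-1 to ASP3-4 of asparaginase, whose probes may share signal, were at -0.36, -1.06, -0.58 and -0.56, and at equal spread ASP3-2 was at -2.54.

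Some permeases of amino acids and peptides had MDN far below both media, though their lists did not. The median ratio of MDN over 23 measured amino acid permeases was -0.34 to YPD and -0.36 to SCD, and over 8 peptide transport genes 0.35 and 0.53. BAP3 and BAP2, carriers of branched-chain amino acids, had MDN over YPD of -5.06 and -4.06 and MDN over SCD of -5.64 and -4.32. Their differences, 0.58 and 0.26, could be 0, since rounding of such low ratios alone allows 0.00 to 1.22 and 0.00 to 0.53. TAT1, TAT2 and GNP1 behaved alike, at -1.0 (-4.06 and -3.06), -0.58 (-3.06 and -2.47) and -0.08 (-2.56 and -2.47). TAT1 was at -0.03 at equal spread. PTR2, the peptide transporter that imported dipeptides induce, was at -1.39 (-3.64 and -2.25), and at -0.60 at equal spread. Of 23 measured amino acid permeases, MUP1 and MUP3 were higher and TAT1 lower on the deposited scale, with a median of 0.09. At equal spread the members past 2-fold were mostly others: AGP1, BAP2, BAP3 and MUP1 were higher and GAP1 lower, with a median of 0.16. The basic amino acid permeases CAN1 and LYP1 were at 0.05 and -0.23 and the histidine permease HIP1 at -0.84.

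Purine and pyrimidine genes were mildly lower in SCD. Of 21 measured genes of purine synthesis, ADE6 (-1.08, with 0.00 and 1.08), GUA1 (-1.02) and IMD4 (-1.0) were at least 2-fold lower and none higher, with a median of -0.32. ADE17, which closes the purine ring, was at 0.02 with MDN above both media by 3.23 and 3.20. In salvage and uptake, AAH1, adenine deaminase, was at -1.27, the uracil permease FUR4 at -1.24 and the uridine permease FUI1 at -1.05, with a median of -0.45 over 18 members. Pyrimidine synthesis had none past 2-fold among 10 genes.

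Of 22 measured hexose transporters and glucose sensors, 2 were at least 2-fold higher in SCD and 1 lower, with a median of 0.05 that was -0.03 at equal spread. HXT6 and HXT7, high-affinity carriers, were at 1.62 (-0.22 and -1.84) and 1.32 (0.10 and -1.22); their sequences are nearly identical and the probes may share signal. HXT2, another carrier for low glucose, was at -1.70 with MDN lowest (-3.06 and -1.36). HXT1, for high glucose, was at 0.20 and HXT3 at 0.14. Of 24 genes of glycolysis and fermentation, the kinases HXK1 (1.60) and GLK1 (1.57) were higher and the median was 0.03. In the glycerol list, GPP1, which makes glycerol from its phosphate, was at -1.55 (-0.71 and 0.84) and GPD1, the step before it, at 0.89.

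Several smaller lists held a few genes past 2-fold. The polyamine exporters TPO4, TPO2 and TPO3 were at 1.61, 1.36 and 1.02, while the polyamine synthesis gene SPE2 was at -0.71; 3 of 14 were higher and the median was 0.32. In the list of mating genes, the pheromone gene MF(ALPHA)2 was at -1.46 (-1.69 and -0.23), PRM2 at -1.24 and the pheromone receptor gene STE3 at -1.06, with 17 of 21 below 0 and a median of -0.29. Among 33 cell wall genes, YGP1, SPI1 (1.44), KNH1 (1.23), CWP1 (1.12) and SED1 (1.11) were higher. PNC1, the nicotinamidase of NAD salvage, was at 1.56 and HAL1, which raises salt tolerance, at 1.43. Ergosterol synthesis had 20 of 24 genes below 0, a median of -0.32 and none past 2-fold. No gene of the lists for vitamin B6, biotin, fatty acid synthesis, PAU proteins, histones, DNA replication, G1 cyclins, galactose or maltose use was past 2-fold.

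Of the genes at least 2-fold apart, 68 of 148 higher ones and 72 of 117 lower ones were in none of the 65 lists. The 72 include 19 genes of shared length, described below. The lists held 1414 of the 5278 genes compared, so most genes at large were in none either. Genes past 2-fold were in a list more often than genes at large, but the lists were chosen with earlier results of these data known. EEB1, which forms ethyl esters of fatty acids, was at 2.28 with MDN above both media (3.73 and 1.45). Named after their values were seen, APL5, a subunit of the AP-3 adaptor, was at 2.17 (3.40 and 1.23), ROM1, an exchange factor of Rho1, at 2.05 (-0.14 and -2.18), and RAD59, a recombination protein, at 2.04 (1.91 and -0.14). YEL073C, which RefSeq gives no symbol, was at 2.47 with MDN between (1.07 and -1.40). On the lower side stood SAE3, a meiotic recombination gene, at -1.52, IRC7, a cysteine-sulfur lyase gene, at -1.48, TOM71, of the mitochondrial import receptor, at -1.42, and YGR079W at -1.49.

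A set of genes known here only by their systematic names was lower in SCD together, a group formed after its values were seen. RefSeq (assembly R64) gives 75 genes without a symbol whose length of at least 1000 bases is shared by at least 10 such genes. Of the 21 measured here, 19 were at least 2-fold lower, and all 21 were below 0, between -1.54 for YMR050C and -0.66 for YCL020W, with a median of -1.10. They were 19 of the 117 genes at least 2-fold lower in SCD. MDN lay between the other media, with medians of -0.27 over YPD and 0.84 over SCD. All 9 measured genes of 5269 bases and all 8 of 1323 bases were among the 19. Genes of equal length may be copies whose probes share signal, so the 21 values may count fewer independent measurements; this was not tested.

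The position of MDN sorted the genes at least 2-fold apart. Among the 148 higher in SCD, YPD stood apart for 65 (43.9%), with MDN within 2-fold of SCD and at least 2-fold from YPD, and SCD stood apart for 20 (13.5%). MDN lay at least 2-fold outside both media on the same side for 8, and between them for 55, of which 53 had both ratios under 2-fold. Among the 117 lower in SCD, YPD stood apart for 38 (32.5%), SCD for 12 (10.3%), MDN lay outside for 8 and between for 59. The genes with SCD apart on the higher side included the 4 zinc genes, INO1, YGP1, HXT6 and HXT7, and those on the lower side SPL2, PHO84, GDH3, LYS2, ADE6 and FUI1. Since both ratios share the MDN channel, an error in the MDN signal of either array enters these classes, and they give no independent support to the difference. The array of MDN over YPD also had the wider spread, with a median absolute deviation of 0.263 against 0.197 for MDN over SCD. The classes used the same 2-fold limit on both arrays at the deposited scale, so their counts depend on that difference in spread.

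Some genes past 2-fold were neighbours in the R64 gene order, and no test was made of their number. Of the 148 higher genes, 17 (11.5%) had a neighbour that was also at least 2-fold higher, against 250 of 5242 genes (4.77%) that had such a neighbour. Among the 9 pairs were the near-identical HXT6 and HXT7, OPI3 with MOG1 (1.28), DDR2 with AIM39 (1.11), and YEL073C with RMD6 (1.34). Of 98 lower genes outside the shared-length set, 6 (6.12%) had a lower neighbour, against 170 of 5242 (3.24%), in the pairs PHO3 with PHO5, BAT2 with HMS2 (-1.12) and MF(ALPHA)2 with LIF1 (-1.24). Overlap of the probes with transcripts of a neighbour was not tested.

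Rapamycin, which inhibits TORC1, was measured on other arrays and is given beside the medium difference without a test of likeness, since cultures or RNA may be shared. The sulfur list, at 1.11 for SCD over YPD, had medians of -0.32 and -0.32 on the rapamycin arrays in MDN and of 0.06 and 0.05 in YPD. General stress genes, at 0.96, had 0.86 and 0.74 in MDN and 1.36 and 1.23 in YPD, and vacuolar proteases, at 0.68, had 1.03 and 0.96, and 1.59 and 1.40. Ribosome biogenesis, at -0.39, had -1.40 and -1.29 in MDN and -2.18 and -2.32 in YPD. The zinc list, at 0.42, stayed between -0.15 and -0.04 on all 4 arrays. Nitrogen catabolite repression, at -0.19, had 0.42 and 0.42 in MDN but 2.30 and 2.50 in YPD. Single genes could run against each other: BAT2, the lowest gene in SCD over YPD, had 4.15 and 3.70 with rapamycin in MDN and 2.50 and 2.98 in YPD, while PHO11, the next lowest, had -1.94 and -2.00 in MDN and -2.06 and -1.64 in YPD.

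**Figure D5:**
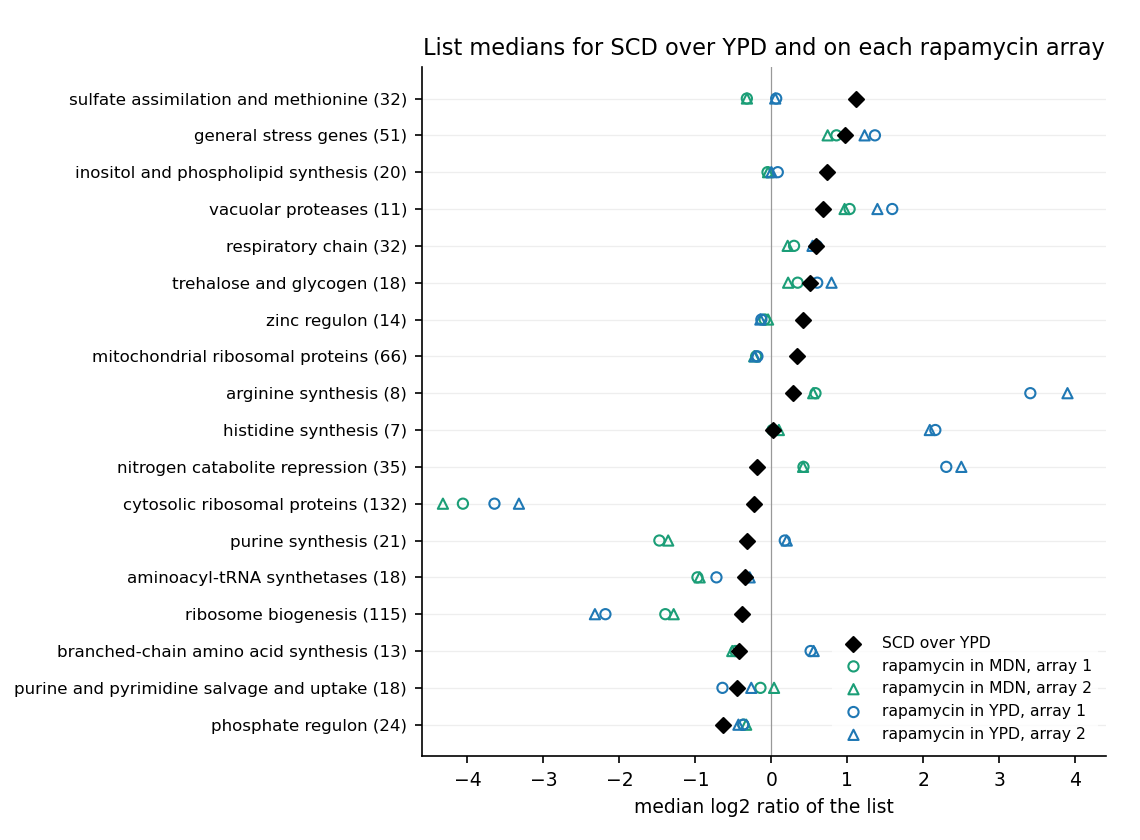
Median log2 ratio of 18 gene lists (number of members measured for SCD over YPD in brackets) for SCD over YPD (black diamonds) and on each of the 4 rapamycin arrays (open circles and triangles, green in MDN and blue in YPD). Stress genes and vacuolar proteases are above 0 and ribosome biogenesis below 0 on all 5 measures, and for the zinc list the medium value of 0.42 stands above rapamycin values of -0.15 to -0.04.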

How the data were processed

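The deposited table gives, per the file headers and labels, values for 6210 probes on 6 arrays, with 5834 to 6121 probes measured per array. When 2 is raised to each deposited value, 100% of the results are whole multiples of 0.01 (tolerance 0.0001), so the authors' values are log2 ratios of rounded ratios, which are imprecise where a ratio is low. No source used here gives the scanner, background correction or normalization. The median log2 ratio was -0.06 on the array of MDN over YPD and -0.09 on that of MDN over SCD. The number of arrays limits the precision.

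A single gene symbol was given for 5595 probes by the platform annotation, updated through RefSeq gene numbers (all 5595 matched), and 615 probes were unnamed here. Probes of the same gene (34 genes) were averaged. No coordinates or sequences are printed. Differences, counts and medians were computed in Python 3.11.15 with pandas 2.3.3 and numpy 2.4.6 and drawn with matplotlib 3.10.9. The subtraction was checked on simulated arrays that shared the same MDN level and dye effect, so it does not bear on unequal MDN samples. The position classes of MDN were checked on example values, and the list counts and medians were not checked in this way. No test was run, because each medium comparison has 1 array. Genes were named by rule: the 20 highest, the 20 lowest, and in every list the 4 or fewer members farthest from 0 (263 genes in all). Every other gene was named after its value was seen. The comparison, the 65 lists and their members were chosen with earlier results of these data known. Alternatives were median centring, equal scale of the arrays, a floor of 0.05 on ratios, separate probes, a 3-fold threshold and genes measured on all 6 arrays. A median over stress genes in no other list was added after seeing the data.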

Additional observations from a re-analysis of the deposited data

Results flagged for a closer look

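Among the 40 highest and lowest genes of SCD over YPD, 36 had a value on all 4 rapamycin arrays, and in 5 of these both MDN arrays lay on one side of 0 and both YPD arrays on the other. The same count was not made over all genes, so 5 of 36 cannot be called many or few. The difference between media was not tested. MET6 had -1.22 and -1.0 with rapamycin in MDN and 1.78 and 1.46 in YPD, so that its mean in MDN minus its mean in YPD was -2.73. For MET17 this was -1.96 (-0.56 and -0.74 in MDN, 1.17 and 1.46 in YPD), and for MET10 it was -1.93 (-0.69 and -0.71, then 1.16 and 1.29). SAM2 ran the opposite way, with 1.61 (0.12 and 0.03 in MDN, -1.51 and -1.56 in YPD). ZRT1 differed by -0.65 (-0.09 and -0.04 in MDN, 0.57 and 0.60 in YPD). The MDN values of both SAM2 and ZRT1 are within the SD of a duplicate difference in MDN, 0.254.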

How the results depend on the processing

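The counts of 148 higher and 117 lower genes became 51 and 10 at 3-fold. They were 141 and 128 with each array centred, 123 and 121 at equal spread (115 and 92 of them shared with the main counts), 161 and 127 with probes counted separately, and 140 and 109 for genes on all 6 arrays. Flooring ratios at 0.05 left 148 and 117. Equal spread changed the sign of 12 of 65 list medians, none with an absolute main value above 0.288, and centring that of 4. The nitrogen catabolite repression median moved from -0.19 to -0.68, branched-chain synthesis from -0.43 to -0.86, histidine synthesis from 0.02 to -0.41, and threonine, serine and glycine from 0.11 to -0.26. Of the 265 genes past 2-fold, equal spread brought 58 under it, among them ARG3 (0.79), HSP26 (0.95), MUP3 (0.79), APE1 (0.68), SER33 (0.76), FRE1 (-0.81), PTR2 (-0.60) and TAT1 (-0.03), and it took 37 other genes past 2-fold, among them ACO1 (-1.39), LYS21 (-1.26), ILV5 (-1.22), LYS4 (-1.17), GAP1 (-1.15), CIT2 (-1.13), LYS20 (-1.07) and DAL5 (-1.03). None of the 265 changed sign with centring, equal spread or the floor. No paired analysis was possible because each medium comparison has 1 array. With no replicate of either medium array, the spread between cultures is not measured. Differences near 2-fold, and some far larger, lie within the range that duplicate arrays also reach. The largest absolute log2 difference between duplicates was 2.75 (RPL31A) in MDN and 5.09 (HAB1) in YPD. Duplicate differences of 2 or more were seen for 4 genes in MDN and 12 in YPD.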
